A study of Mus musculus with 7 samples.

Results

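The retinoic acid pathway genes examined here were 5 receptors (Rara, Rarb, Rarg, Rxra and Rxrb), the synthesis enzyme Aldh1a2, the degradation enzymes Cyp26a1 and Cyp26b1, and the binding proteins Crabp1 and Crabp2. An HDAC1 peak was assigned to a gene when it overlapped the gene body with 20 kb added on each side by at least 1 bp (mm10, GENCODE M21), and 46 of the 15347 peaks were found in this way. Binding of HDAC1, a histone deacetylase, was mapped by ChIP-seq, with 4 samples precipitated with an HDAC1 antibody and 3 input samples as background. All samples were pools of forelimb and hindlimb buds of wild-type Swiss Webster mice at E11.5 (40 to 44 somites), with 3 litters per pool per the labels. The authors deposited 1 peak list for all samples, and it holds positions in rank order with no height, read number or value for a single sample, so that no value here has a replicate error and the depth behind a peak is unknown. What quantity sets the rank is not given in the sources used here, and a cell type within the limb bud cannot be told from a peak.

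Retinoic acid is made from vitamin A in successive oxidation steps, and ALDH1A2 (RALDH2) carries out the last of them in most of the early embryo. The CYP26 enzymes break it down, and in the limb bud CYP26B1 is known to keep the distal mesenchyme low in retinoic acid while synthesis takes place in the trunk and flank. In the cell, CRABP proteins carry retinoic acid, and heterodimers of a RAR and an RXR bind response elements in DNA, usually direct repeats of a hexamer. Without ligand, these receptors are known to recruit corepressor complexes that hold histone deacetylases, and Rarb and Cyp26a1 are among the best known genes with such response elements at their own promoters.

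To show where such elements lie relative to HDAC1, direct repeats were searched on both strands of GRCm38.p6. A repeat was a pair of hexamers in the same direction with 1, 2 or 5 bases between them, and each hexamer was AGGTCA, the variant written AGTTCA, the variant written GGGTCA or the variant written GGTTCA. The gene windows held 36 such repeats, and 3 of them lay inside an HDAC1 peak, 1 at Rarb and 2 at Cyp26a1. All of these 3 had a spacer of 5 bases, the spacing named DR5. They are shown 5′ to 3′ with the hexamers in capitals, since they are the only repeats of this kind under the peaks of these genes, followed by the DR5 of Rara that lay closest to a peak without being inside it.
Rarb, chr14:16575513-16575529, minus strand: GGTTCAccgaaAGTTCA
Cyp26a1 promoter, chr19:37697776-37697792, minus strand: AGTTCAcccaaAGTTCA
Cyp26a1 upstream, chr19:37695909-37695925, plus strand, with 10 bases on each side: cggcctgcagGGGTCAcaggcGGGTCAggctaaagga
Rara, chr11:98960008-98960024, plus strand: AGTTCAgcaagAGTTCA
The Rarb repeat began 14 bp downstream of the protein-coding transcription start site (TSS) of Rarb-201, in the 5′ untranslated part of the first exon of Rarb-201 and Rarb-207. RefSeq places the start of Rarb further downstream, and the repeat lies among the 250 bases upstream of that start. Whether it is counted as transcribed or as upstream thus depends on the annotation. The Cyp26a1 promoter repeat ended 6 bp upstream of the TSS, and the other Cyp26a1 repeat lay 1873 bp upstream of it. The Rara repeat was 276 bp from the nearest peak and 388 bp upstream of the TSS of Rara-202.

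Of 9284 DR5 repeats in the main chromosomes of the mouse genome, 26 (0.280%) lay inside an HDAC1 peak, and 3 of these 26 were the repeats at Rarb and Cyp26a1. The gene windows held 10 DR5 repeats, so that 7 were not under a peak. None of the 12 repeats with a spacer of 1 or the 14 with a spacer of 2 was under a peak in these windows, while 0.312% and 0.0618% of such repeats were in the genome. Among all listed peaks, 91 of 15347 (0.593%) held a repeat of any of the spacings, against 3 of the 46 peaks here (6.52%). Because Rarb and Cyp26a1 were known beforehand for such elements, this contrast is no independent result. In windows as long as each peak, placed at the centres of all listed peaks, the share with a repeat was 0.990% for the Rarb peak of 800 bp, 3.84% for the Cyp26a1 promoter peak of 2600 bp and 0.521% for the upstream Cyp26a1 peak of 450 bp. These matches describe letters in the sequence, were given no test, and do not show that a receptor was bound.

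Every one of the 10 genes had at least 1 HDAC1 peak in its window, and each had at least 1 at a TSS of its own, where a peak was at a TSS if it touched the 2 kb before or the 1 kb after a protein-coding TSS. There was thus no gene without a peak. These TSS are those of the GENCODE basic annotation, and at the RefSeq start of Cyp26b1, at the 5′ end of the gene, there was no peak. Of all 21851 protein-coding genes, 59.2% had a peak in the same kind of window and 44.1% had one at a TSS. The members were chosen with earlier results of these data known, and no test was made of this difference. Of the 46 peaks, 24 lay at a TSS of the named gene, 9 lay only at a TSS of another protein-coding gene, and 13 lay at neither. Peak lengths ran from 150 to 6750 bp with a median of 450 bp, the same median as that of the whole list.

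**Figure D1:**
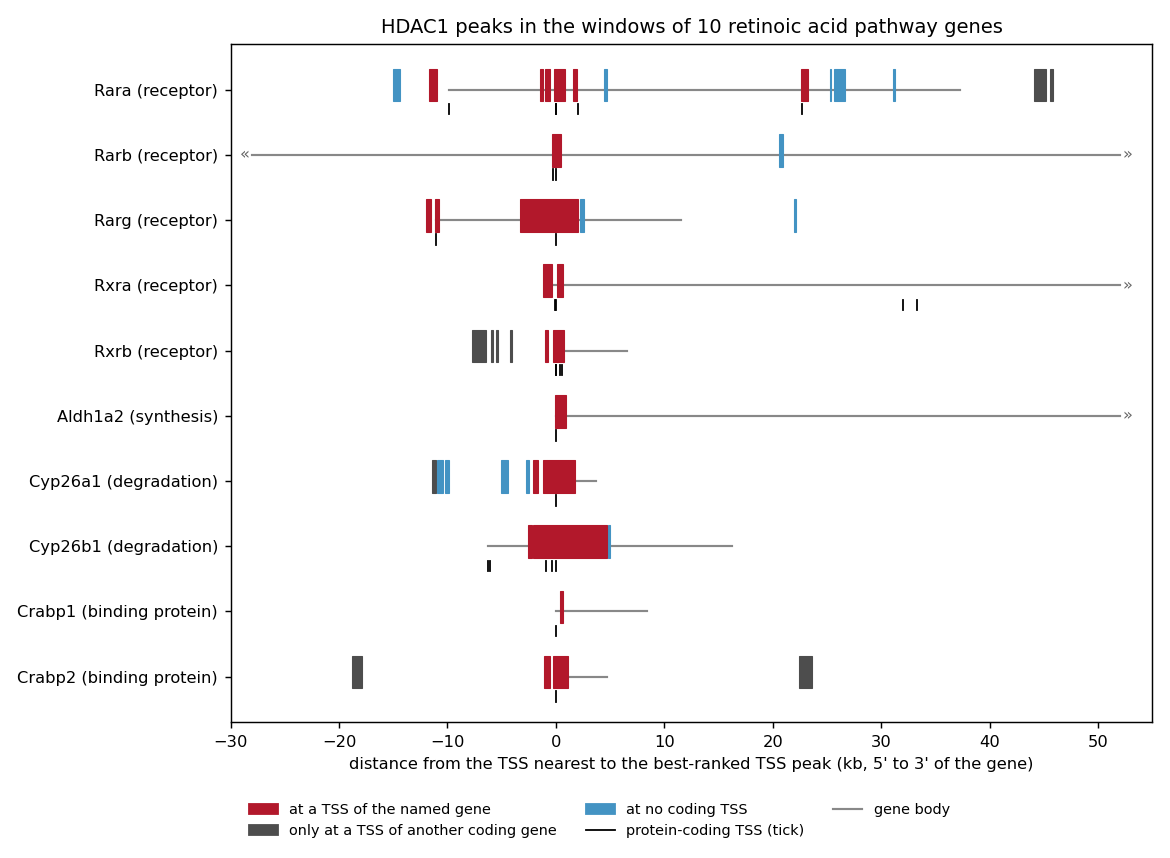
Positions of the 46 HDAC1 peaks of the 10 genes, 1 row per gene, in kb from the TSS nearest to the best-ranked peak at that gene's TSS, drawn 5′ to 3′. Boxes are peaks to scale (neighbours less than about 0.2 kb apart touch), grey lines gene bodies (« and » where they run on), ticks protein-coding TSS, and the boxes of Rarg (5350 bp) and Cyp26b1 (6750 bp) stand out by their width.

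The retinoic acid receptors are transcription factors, and Rara, which encodes RARα, had 13 peaks in its window, more than any of the other 9 genes. Of all protein-coding genes, 0.160% had as many. At their own TSS, 6 of the 13 peaks were found, a number reached by 4 of 21851 genes (0.0183%), although a gene with several TSS has more sequence counted and Rara has 5. Of all genes, 9.18% had a TSS peak ranked at least as high as the best of Rara and 13.5% had 1 at least as long as its longest. The best ranked of these 6, a peak of 950 bp from 98937550 to 98938499 on chromosome 11, was at position 2053 of the ranked list and covered the TSS of Rara-204 and Rara-201. Around it lay peaks of 300, 450 and 300 bp at positions 13036, 13109 and 5385, the last of them 112 bp upstream of the TSS of Rara-207. Another peak at a TSS, of 650 bp (98960300 to 98960949, position 4677), covered the downstream TSS of Rara-202, over an exon. The first TSS of the gene, that of Rara-203, was not covered, and the nearest peak ended 1119 bp upstream of it (750 bp, position 8230).
Inside the gene, 4 further peaks lay in introns away from the protein-coding TSS of the basic annotation. The longest of them (1050 bp, position 3431, 98963300 to 98964349) was 2888 bp downstream of the TSS of Rara-202. The other 3 were of 300, 150 and 250 bp, at positions 8895, 14623 and 12263. Downstream of the longest lies a RefSeq promoter of Rara (98964622 to 98964921), itself under no peak. The peaks at positions 3431 and 14623 touch the 2 kb before its start. The remaining 3 peaks of the window lay outside the gene body and at none of its TSS. A peak of 600 bp at position 5742 overlapped the body of Cdc6, a replication licensing gene. It lay at no coding TSS and 4519 bp upstream of that of Rara-203, so that it cannot be given to either gene by position. Downstream, 2 peaks lay at the TSS of Gjd3, which encodes a gap junction protein. One of these, 1100 bp long, was at position 88 and was the best ranked of the Rara window, so that the rank of the window was set by a neighbouring gene.

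Rarb (RARβ) spans 388318 bp, the longest of the genes, and had only 2 peaks, a number reached by 32.8% of genes. The peak of 800 bp from 16575100 to 16575899 on chromosome 14, at position 6979, covered both TSS of the basic annotation (Rarb-201 and Rarb-207) and contained the DR5 repeat shown above. A TSS peak ranked at least as high was found for 28.1% of genes and 1 at least as long for 18.1%. The other, of 350 bp at position 11472, lay in an intron 20594 bp downstream of a TSS. In the comprehensive annotation, Rarb-203 and Rarb-204 start far upstream, at 16819156 and 16819005, and the nearest peak was 243257 and 243106 bp away from these TSS. HDAC1 peaks were thus listed at the internal promoter region of Rarb and not at the upstream one.

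Rarg (RARγ), a receptor known for its expression in mesenchyme and cartilage, had 5 peaks in its window (3.83% of genes had as many), 3 of them at its TSS (1.62%). A peak of 5350 bp from 102244450 to 102249799 on chromosome 15, at position 977, covered the internal TSS of Rarg-202 and held 441 exon bases, 151 of them coding. Of all genes, 0.192% had a TSS peak as long and 4.44% had 1 ranked as high, and of the 1001 peaks within 500 positions of its rank, itself included, 3 were as long or longer. At the upstream TSS of Rarg-201 the covering peak had 400 bp (position 6328), with another of 450 bp (position 13253) 483 bp further upstream. Downstream of the long peak lay 1 of 400 bp in an intron (position 7473). Together the peaks covered 26.7% of the gene body. A last peak of 150 bp at position 15111 overlapped Itgb7, an integrin gene downstream of Rarg.

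Rxra (RXRα), the widely expressed partner of the RARs, had 2 peaks in a window of 126518 bp. Both were at its TSS, as were at least 2 peaks in 9.41% of genes. They lay on either side of the TSS of Rxra-201, which neither covered: 1 of 850 bp (position 8771) ended 302 bp upstream, and 1 of 550 bp (27677400 to 27677949 on chromosome 2, position 7698) began 138 bp downstream of the TSS of Rxra-206 and 199 bp downstream of that of Rxra-201. The peak of 850 bp covered the TSS of Rxra-204 (27676440), which is in the comprehensive annotation only. A TSS peak ranked as high as the better of both was found for 30.1% of genes and 1 as long as the longer for 16.5%. The TSS of Rxra-202 and Rxra-203, far inside the gene, had no peak, and the nearest was 31343 and 32634 bp away. Rxrb (RXRβ) is a short gene in the gene-dense major histocompatibility region, and its window held 6 peaks (2.02% of genes had as many). A peak of 1100 bp from 34031500 to 34032599 on chromosome 17, at position 2655, covered all 4 of its TSS, and 1 of 300 bp at position 15266 ended 713 bp upstream. For the former, 11.8% of genes had a TSS peak ranked as high and 10.2% had 1 as long. Both peaks also lay at the TSS of the zinc transporter gene Slc39a7, which starts back to back with Rxrb, and they cannot be given to either gene. The other 4 peaks of its window were at the TSS of Ring1, a Polycomb gene, with 1250, 200 and 200 bp (positions 2087, 12790 and 8023), and of H2-Ke6 with 200 bp (position 9510).

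Among the enzymes, Aldh1a2 and the Cyp26 genes differed widely in rank and length. Aldh1a2, the synthesis enzyme, had a single peak in a window of 120455 bp, from 71215700 to 71216749 on chromosome 9, and it covered the only TSS. This peak was at position 11029, but it was 1050 bp long, while the 1001 peaks within 500 positions of it had a median of 300 bp and only 10 of them (0.999%) were as long or longer, itself included. Of all genes, 37.5% had a TSS peak ranked as high and 11.1% had 1 as long. No other peak lay within 168807 bp of the window. The 240 bases upstream of the Aldh1a2 TSS, with each CpG in capitals, are shown since they are among the most CpG-dense of these genes, and 89 of them lay under the peak.
Aldh1a2, chr9:71215549-71215788, plus strand: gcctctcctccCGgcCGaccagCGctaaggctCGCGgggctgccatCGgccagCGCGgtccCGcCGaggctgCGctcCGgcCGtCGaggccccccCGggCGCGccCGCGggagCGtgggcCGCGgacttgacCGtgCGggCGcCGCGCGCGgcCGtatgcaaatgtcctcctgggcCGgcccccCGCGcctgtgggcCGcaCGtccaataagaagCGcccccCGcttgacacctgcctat

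Cyp26b1 had the best-ranked and longest peak of all 10 genes, 6750 bp long at position 41 (84583000 to 84589749 on chromosome 6). Only 12 of the 15347 listed peaks were as long or longer, itself included, and 0.165% of genes had a TSS peak ranked as high and 0.0732% had 1 as long. With 3 peaks the window was matched by 16.0% of genes. The peak covered the internal TSS of Cyp26b1-203, Cyp26b1-204 and Cyp26b1-205 and held 1162 exon bases, 429 of them coding. The TSS of Cyp26b1-201 and Cyp26b1-202 at the 5′ end of the gene had no peak within the TSS window. The RefSeq promoter of the gene (84593761 to 84594060) lies there as well, so that its TSS peak rests on the internal TSS. The nearest, of 350 bp at position 11775, lay 3497 bp downstream of Cyp26b1-201, and 1 of 200 bp at position 12458 lay in an intron beyond the other end of the long peak. Peaks covered 32.5% of the Cyp26b1 gene body. The sequences upstream of an internal and of the outermost TSS of Cyp26b1 are set side by side, with each CpG in capitals, because 1 lay wholly under the peak of 6750 bp and the other under none.
Cyp26b1-204, upstream, chr6:84588639-84588878, minus strand: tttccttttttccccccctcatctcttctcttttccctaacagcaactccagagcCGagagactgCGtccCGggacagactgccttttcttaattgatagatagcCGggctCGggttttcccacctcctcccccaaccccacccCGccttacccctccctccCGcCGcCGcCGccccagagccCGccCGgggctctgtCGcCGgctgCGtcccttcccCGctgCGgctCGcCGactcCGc
Cyp26b1-202, upstream, chr6:84593909-84594148, minus strand: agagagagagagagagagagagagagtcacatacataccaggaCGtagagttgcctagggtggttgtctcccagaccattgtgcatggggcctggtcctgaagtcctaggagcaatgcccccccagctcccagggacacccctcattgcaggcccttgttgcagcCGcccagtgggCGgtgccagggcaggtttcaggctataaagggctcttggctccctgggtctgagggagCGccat
The former held 20 CpG in 240 bases and the latter 4. Upstream of the other internal TSS, those of Cyp26b1-205 and Cyp26b1-203, there were 22 and 14, and upstream of Cyp26b1-201, under no peak, 9.

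Cyp26a1 had 8 peaks in its window, and 0.705% of protein-coding genes had as many. A peak of 2600 bp from 37697000 to 37699599 on chromosome 19, at position 857, covered the TSS and 48.2% of the gene body, the largest share of the 10 genes. Of all genes, 3.91% had a TSS peak ranked as high and 1.03% had 1 as long. Upstream lay peaks of 300 bp (position 9539, 849 bp from the TSS), 450 bp (position 12051, 1649 bp) and 300 bp (position 7570, 2449 bp), and the peak of 450 bp held the upstream DR5 repeat. The next peak, of 700 bp at position 2662, was at the 3′ end of Cyp26c1, another retinoic acid hydroxylase gene, which ends 4399 bp before Cyp26a1. The peaks of 500 and 300 bp (positions 7319 and 10695) lay within Cyp26c1, and that of 400 bp (position 10384) at its TSS. The windows of Cyp26a1 and Cyp26c1 shared all 8 peaks, so that these cannot be divided between the neighbours by distance alone. The 240 bases upstream of the Cyp26a1 TSS, all under the peak of 2600 bp, are given with the DR5 repeat in capitals, read on the opposite strand to the repeat as listed above.
Cyp26a1, chr19:37697558-37697797, plus strand: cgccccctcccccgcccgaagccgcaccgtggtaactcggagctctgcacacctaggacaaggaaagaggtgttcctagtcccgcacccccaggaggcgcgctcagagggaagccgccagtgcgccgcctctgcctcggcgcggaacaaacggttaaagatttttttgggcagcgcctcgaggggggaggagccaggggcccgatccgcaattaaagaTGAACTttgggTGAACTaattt

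The binding proteins differed as well. Crabp1, whose product binds retinoic acid in the cytoplasm, had a single peak of 300 bp at position 15233 of 15347 (54765100 to 54765399 on chromosome 9), in an intron 352 bp downstream of the TSS. It was the lowest-ranked of the best TSS peaks of the 10 genes, and 43.9% of protein-coding genes had a TSS peak ranked as high and 39.6% had 1 as long. Crabp2, whose product passes retinoic acid to the receptors, had 3 peaks at its TSS on chromosome 3. They had 600 bp (87947550 to 87948149, position 4742), 1000 bp (87948400 to 87949399, position 1629, over the TSS) and 300 bp (87949450 to 87949749, position 10926). A TSS peak ranked as high as the best of these was found for 7.35% of genes and 1 as long as the longest for 12.2%. Its window also reached peaks at the TSS of other genes, 1 of 900 bp at position 248 at Isg20l2 and Rrnad1 and 1 of 1150 bp at position 3313 at Nes, the gene of the intermediate filament nestin. A repeat of AGTTCA and AGGTCA with a spacer of 2 bases lay 12 bp outside the peak of 600 bp of Crabp2.

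**Figure D2:**
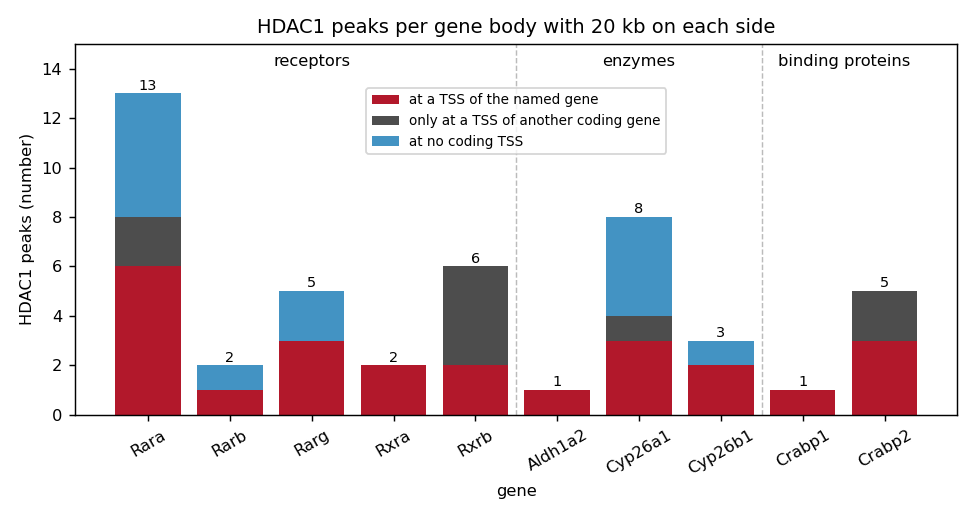
Number of HDAC1 peaks per gene body with 20 kb on each side (bars, total above each), split by whether a peak lay at a TSS of the named gene, only at a TSS of another coding gene, or at no coding TSS. Rara had the most with 13, of which 6 were at its own TSS, and 4 of the 6 peaks of Rxrb were at other genes.

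Receptors and enzymes of synthesis and degradation were then compared. All 5 receptors and all 3 enzymes had a peak at a TSS, against 44.1% of protein-coding genes. The receptors had 2 to 13 peaks per window with a median of 5, and the enzymes 1 to 8 with a median of 3. The order changed with the rule. Without peaks that lay only at the TSS of another gene the medians were 2 and 3, and with 5 kb in place of 20 kb both were 3. Receptors kept the higher median with gene bodies alone (2 and 1), with 50 kb added (6 and 3), with the 7674 best-ranked peaks (2 and 1) and with peaks no more than 1000 bp apart merged (3 and 1). The best-ranked peak at a TSS was at position 977 for Rarg, 2053 for Rara, 2655 for Rxrb, 6979 for Rarb and 7698 for Rxra, and at 41 for Cyp26b1, 857 for Cyp26a1 and 11029 for Aldh1a2. Both degradation enzymes compared here thus ranked before all 5 receptors and the synthesis enzyme after all of them, though Cyp26a1 (857) and Rarg (977) were close. Outside the groups compared, the degradation gene Cyp26c1 (position 10384) and the synthesis gene Aldh1a3 (position 10188) both ranked after all 5 receptors. The order is thus not one of all degradation genes. The ranges of receptors and enzymes as groups overlapped. Peak length did not follow the same order. The longest TSS peak had 6750 and 2600 bp at Cyp26b1 and Cyp26a1, 1050 bp at Aldh1a2, 5350 bp at Rarg and 800 to 1100 bp at the other receptors. The share of the gene body under peaks was 0.30 to 26.7% in receptors (median 9.34%) and 1.19 to 48.2% in enzymes (median 32.5%), and it depends on gene length, which ran from 3739 bp for Cyp26a1 to 388318 bp for Rarb. With 5 and 3 genes, which are not replicates, and 1 list, no test was made of these differences.

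**Figure D3:**
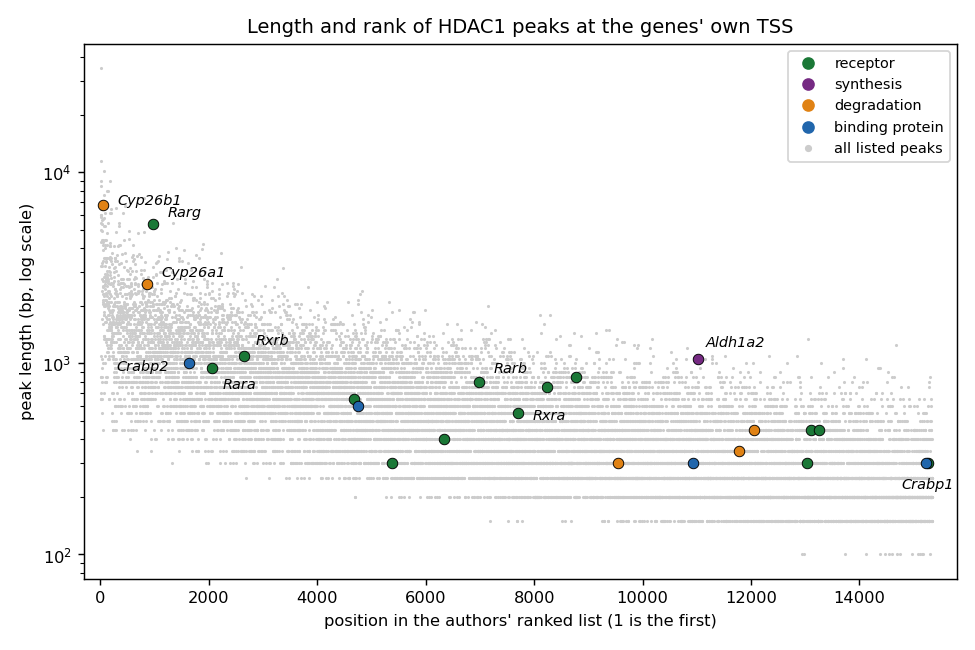
Length (bp, log scale) against position in the authors' ranked list for all 15347 HDAC1 peaks (grey) and for the 24 peaks at a TSS of the 10 genes (coloured by role), with the best ranked of each gene named. Cyp26b1 (6750 bp), Rarg (5350 bp) and Cyp26a1 (2600 bp) lie at the upper left, and Aldh1a2 (1050 bp, position 11029) lies above nearly all peaks of similar rank.

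The 10 genes have 26 protein-coding TSS in the basic annotation, and 22 of them had a peak in the TSS window, against 42.8% of 41438 TSS in the genome. A peak covered the TSS itself in 17 cases, 11 of 17 for receptors, 5 of 7 for enzymes and 1 of 2 for binding proteins, against 29.5% in the genome. Because HDAC1 peaks were GC-rich in general, CpG content within 500 bp of each TSS was measured. A TSS was called CpG-rich at a GC content of at least 50% and an observed over expected CpG ratio of at least 0.6. All 16 CpG-rich TSS of the genes had a peak, and 80.4% of such TSS in the genome did. Of the other 10 TSS, 6 had a peak, while 11.7% did in the genome. The 4 TSS without a peak, those of Cyp26b1-201, Cyp26b1-202, Rxra-202 and Rxra-203, had ratios of 0.25, 0.22, 0.12 and 0.15. Rara-207, at 0.22, was as CpG-poor and had peaks, while the internal TSS of Cyp26b1 under the long peak had 0.59 to 0.85. The highest ratios, 0.98 and 1.01, belonged to the TSS of Rxra-201 and Rxra-206, which no peak covered. TSS of 1 gene share sequence and peaks and are not independent, and the part of CpG content in the number of peaks was not tested.
The 46 peaks had a median GC content of 59.6% and a median CpG ratio of 0.52, against 62.9% and 0.76 for the whole list. The lowest ratios were 0.07 for the peak of 200 bp near Ring1 in the Rxrb window (position 8023), 0.08 for the intron peak of Cyp26b1 (position 12458) and 0.15 for that of Rarb (position 11472). None of the 46 peaks held the 9-base core word of GLI factors, the effectors of Hedgehog signalling, GACCACCCA on either strand. Its share in windows of the list ran from 0.130% at 150 bp to 5.66% at 6750 bp. With shares this low, absence from 46 peaks was likely and shows nothing about GLI factors at these genes.

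**Figure D4:**
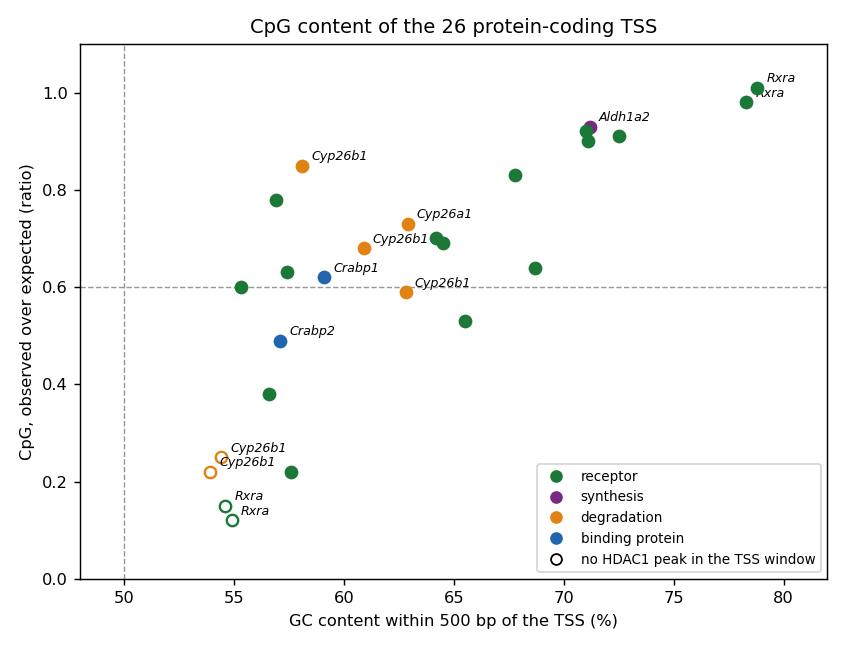
GC content (%) and observed over expected CpG ratio within 500 bp of the 26 protein-coding TSS of the genes, coloured by role, with open circles for TSS without an HDAC1 peak in the TSS window. Dashed lines mark 50% and 0.6, and the 4 open circles, at Cyp26b1 and Rxra, lie at ratios of 0.12 to 0.25.

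Of 35 other genes of the pathway, 18 (51.4%) had an HDAC1 peak at a TSS, close to the 44.1% of protein-coding genes, and 17 had none. Among 16 genes of retinoid supply and binding, 6 had 1 at a TSS. These were Dhrs3, which reduces retinal back to retinol (2400 bp, position 840), Adh5 (950 bp, position 1151), Rdh10, the retinol dehydrogenase of the embryo (1900 bp, position 2520), Rbp4, the retinol carrier of plasma (650 bp, position 2789), the retinol receptor gene Stra6 (350 bp, position 7922), and Aldh1a3 (400 bp, position 10188). Rdh11 had a peak in its window only. Genes with no peak in the window included Aldh1a1, Dhrs9, Adh1, Adh7, Lrat, Bco1, Rbp2 and Fabp5. The third RXR gene, Rxrg, had none either, unlike Rxra and Rxrb, and Cyp26c1 had its 1 TSS peak at position 10384. Among genes known as targets of retinoic acid, the proximal limb genes Meis2 (3500 bp, position 622) and Meis1 (7300 bp, position 807) had a TSS peak.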

How the data were processed

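HDAC1 ChIP-seq peaks were analysed from 4 HDAC1 ChIP and 3 input samples of pooled limb buds. The authors called peaks with CisGenome 2.1.0 (false discovery rate under 0.05) and deposited chromosome, start and end (mm10) of each peak in rank order, as 1 list. The list has no counts or signal. Bowtie2 2.2.5 is named in the submitters' processing notes. Coordinates were read as 1-based with both ends included and set against GRCm38.p6 (mm10), with gene bodies and protein-coding TSS from the GENCODE M21 basic annotation. Overlap needed at least 1 bp, and a peak was at a TSS when it touched 2 kb upstream to 1 kb downstream. GC and CpG content and direct repeats were computed from the genome sequence. RefSeq promoters of 300 bases matched 9 of the 10 genes and gave the same DR5 at Rarb and Cyp26a1. Their starts were not used in the counts of peaks at a TSS. No test was possible over samples, and all counts are descriptions beside the share over all protein-coding genes. The members and gene lists were chosen with earlier results of these data known. All members were named, as were other genes at whose TSS a peak of a window lay, the genes of retinoid supply, binding and breakdown, and listed genes with a TSS peak in the first 1000 peaks. Some genes of the lists are not reported here. The GLI word was added to the text after the values were seen. Alternatives changed the flank, the TSS window and annotation, the part of the list, merging, the overlap rule and the repeat search. On simulated data, all of 2000 overlap calls equalled a count made base after base, and 200 of 200 planted repeats were found. Python 3.11.15 and matplotlib 3.10.9 were used.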

Additional observations from a re-analysis of the deposited data

How the results depend on the processing

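Of 56 recomputed values, 43 stayed within a factor of 1.5, and every gene kept a peak in its window and at a TSS except with the 7674 best-ranked peaks. With those, 7 genes had either, and Aldh1a2, Rxra and Crabp1 had none. The 46 peaks became 25 with 0 kb added, 21 with the 7674 best-ranked peaks and 26 with peaks no more than 1000 bp apart merged. The median per receptor, 5 peaks, became 2 with 0 kb added, 3 with 5 kb added, 2 with the best-ranked peaks, 3 with merging and 2 without peaks at the TSS of another gene only. The median per enzyme, 3 peaks, became 1 with 0 kb added, 1 with the best-ranked peaks and 1 with merging, so that it was the lower of both medians there, equal to that of receptors with 5 kb added and the higher without the peaks of other genes. With the best-ranked peaks, 1 of 2 binding protein genes and 11 of 35 other pathway genes in place of 18 had a TSS peak. The lower values follow from fewer peaks or shorter windows. No paired analysis was possible because peaks come without values for single samples, and no replicate could be left out for that reason. Weaker sites can lie below the peak threshold at any depth, so a gene listed without a peak may still bind HDAC1.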

Other observations

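Of 42 nuclear receptor genes other than the RAR and RXR genes, 21 had an HDAC1 peak at a TSS and 21 had none, against 44.1% of protein-coding genes. The best ranked were Nr2f2 (COUP-TFII, 5650 bp, position 30, with 10 peaks in its window), Nr2f6 (2350 bp, position 93) and Nr3c1, the glucocorticoid receptor gene (2400 bp, position 683). All of these ranked before Rarg, the best ranked of the RAR and RXR genes, at position 977. Of the RAR and RXR genes, the 5 examined here all had a TSS peak and Rxrg had none. No test was made of the difference between these genes and the other nuclear receptor genes. With TSS windows of 5 kb on both sides, 24 of the 42 had a peak.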
